A study of Mus musculus with 12 samples.

Results

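Small nucleolar RNAs (snoRNAs) guide the chemical modification of other RNAs, and a few are needed for the cleavage of ribosomal RNA precursors. Box C/D snoRNAs (symbols Snord) direct 2′-O-methylation, box H/ACA snoRNAs (Snora) direct pseudouridylation, and small Cajal body RNAs (Scarna) act on the spliceosomal small nuclear RNAs (Rnu). In mammals most snoRNAs are cut out of the introns of host genes, many of which encode ribosomal proteins or nucleolar factors or belong to the non-coding small nucleolar RNA host genes (Snhg), while the U3, U8 and U13 RNAs and most spliceosomal RNAs have promoters of their own. The genes described here are those named by 1 symbol that begins with Snora, Snord, Scarna or Rnu and a digit on a whole-transcript Affymetrix array. There were 82 of them among 22180 named genes: 47 Snord, 26 Snora, 5 Scarna and 4 Rnu genes. They were covered by 85 transcript clusters, the probe groups of the array, and the brightest cluster stood for a gene.

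The arrays measured E14 mouse embryonic stem cells that had received either a short hairpin RNA directed at LOXL2, an enzyme related to lysyl oxidase (shLOXL2), or a control hairpin (shCT). Each kind of cell was sampled on day 1 with RA (read here as retinoic acid) and on day 0 without it. The 4 groups of 3 arrays are shLOXL2 with RA, shLOXL2 without RA, shCT with RA and shCT without RA. Day 1 was sampled with RA alone, so an effect of RA and one of the added day cannot be told apart. The labels do not state if replicate arrays are separate cultures, and p-values therefore measure a spread between arrays that may be technical. Values are log2 signals, called levels below, and changes are differences of log2 levels with their standard error (SE).

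Array medians ran from 4.58 to 4.68, and the correlation across clusters between any pair of arrays lay between 0.939 and 0.985. Both clusters of Loxl2 are shared with the predicted gene Gm21451. In the brighter of them the mean level was 5.18 ± 0.105 (SD, n = 3) in shLOXL2 with RA and 6.09 ± 0.368 in shCT with RA, and 4.94 ± 0.140 in shLOXL2 without RA and 5.50 ± 0.295 in shCT without RA. The other cluster stood at 4.80 ± 0.228 in shLOXL2 with RA and 5.88 ± 0.349 in shCT with RA, and at 4.77 ± 0.232 in shLOXL2 without RA and 4.92 ± 0.344 in shCT without RA, where the arrays overlapped. All 15 embryonic stem cell markers examined were measured, and their mean level per array ran from 8.68 to 8.80 in the 6 arrays with RA and from 9.09 to 9.20 in the 6 arrays without RA. The 9 measured feeder fibroblast markers averaged 4.25 to 4.58 with RA and 4.29 to 4.54 without RA, near the array medians, although Pdgfrb among them rose (1.28 ± 0.11, limma adjusted p = 5.4e-06). Of the stem cell markers 7 fell with RA and none rose. Of 9 primitive endoderm markers Gata6 rose (1.63 ± 0.17), and of 9 trophectoderm markers Cdx2 (0.63 ± 0.13) and Krt18 (0.44 ± 0.13) rose. The part of these cell types in the changes below was not tested.

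The small RNA genes were bright on these arrays. Their median level was 8.78, against 5.06 for all genes, and 75 of 82 lay above the median gene. The brightest were Snora33 (mean level 12.46 over 12 arrays), Snord22 (11.95), Snord49b (11.60), Snord110 (11.32) and Snord82 (11.27), and Rnu5g, a variant of the U5 spliceosomal RNA, was the dimmest at 2.16. Levels of different genes come from different probes and cannot be ranked as amounts of RNA. The annotated small RNAs were 48 to 248 bases long, with a median of 85.5. Probes in so short a gene can bind the excised RNA as well as unspliced host transcript, and the values do not separate them. Near-identical copies such as Snora73a and Snora73b, or Snord88a and Snord88c, may share signal.

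Of the 82 genes, 75 lay within another annotated gene, and for 62 of these pairs, with 48 hosts, the host was measured by a cluster of its own (strand was not compared). Hosts of several measured small RNAs were Snhg12 (4 members), 2410006H16Rik (3 members) and, with a pair each, Nop58, Ncl, Gnl3, Wdr43, Rpl3, Rps3a1, Kansl2, Snhg3 and 2410002F23Rik. Start sites of many ribosomal protein and snoRNA host genes are known for a run of pyrimidines, the terminal oligopyrimidine tract. The windows below, of 50 bases before and 50 bases from the annotated start, are those of 3 non-coding hosts that carry several measured small RNAs each. They are given from RefSeq (GRCm38.p6), read 5′ to 3′ along the gene's strand. Capitals mark a run of 7 or more bases that are C or T, begins with C and starts within 10 bases of the annotated start.
Snhg12, chr4:132308628-132308727, plus strand: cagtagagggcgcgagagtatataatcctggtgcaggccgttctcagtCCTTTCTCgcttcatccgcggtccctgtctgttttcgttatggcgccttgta
2410006H16Rik, chr11:62602827-62602926, plus strand: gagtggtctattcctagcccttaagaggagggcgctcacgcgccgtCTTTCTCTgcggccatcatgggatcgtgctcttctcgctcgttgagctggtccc
Snhg3, chr4:132353637-132353736, minus strand: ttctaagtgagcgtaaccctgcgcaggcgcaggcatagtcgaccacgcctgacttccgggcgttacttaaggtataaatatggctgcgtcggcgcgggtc
Snhg12 and 2410006H16Rik each have a run of 8 such bases, and the Snhg3 window has none that long. Of the 40 hosts with a promoter in the table, 9 (22.5%) held such a run on the gene's strand, against 3293 of 27025 genes (12.2%). A match is a description of the letters, and a window without one says nothing about how its gene is controlled.

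With RA, averaged over both constructs, 13 of 82 small RNA genes (15.9%) fell and none rose at an adjusted p under 0.05 (limma, Benjamini-Hochberg over all genes). Over all genes 4.80% were called lower and 5.52% higher. The median change was -0.33, with a range from -0.93 to 0.13, against -0.01 for all genes, and 79 of 82 small RNA genes stood below 0, against 51.5% of all genes. A fall of 0.5 or more on the log2 scale was seen in 20 of 82 (24.4%), against 2.64% of all genes. In whole cultures, less RNA per cell and fewer cells that make it cannot be told apart. The 13 genes were 8 Snord genes (Snord11, Snord19, Snord43, Snord53, Snord73b, Snord88a, Snord88c and Snord91a) and 5 Snora genes (Snora2b, Snora28, Snora73b, Snora74a and Snora78). Snora73b is a copy of the U17 RNA, which is needed for maturation of the 18S ribosomal RNA. The 69 genes that did not pass had a median change of -0.30.

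The count of 13 depended on single arrays. Leaving out replicate 2 or 3 of shLOXL2 with RA gave 6 or 4 genes, and leaving out replicate 1, 2 or 3 of shLOXL2 without RA gave 38, 3 or 6. The count was 5 or 6 when replicate 2 or 3 of shCT with RA was dropped, and 7 or 6 when replicate 1 or 2 of shCT without RA was dropped. With any 1 array left out, 77 to 80 of the 82 genes stood below 0. With the replicate number as a block within the construct, 29 genes (35.4%) passed with a random block, against 8.16% of all genes called lower, and 37 (45.1%) with a fixed one, against 7.59%. All 13 were among them. The labels state no pairing, and correlations between same-numbered arrays were uneven in both constructs. With arrays centred on their medians 22 genes passed, and the median change was -0.41 for the small RNA genes, beside -0.08 for all genes. Under that centring 32.9% of all calls were upward, against 53.5% before. The shares of all genes called after centring or with an array left out are not given here, so those counts cannot be set against all genes.

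**Figure D1:**
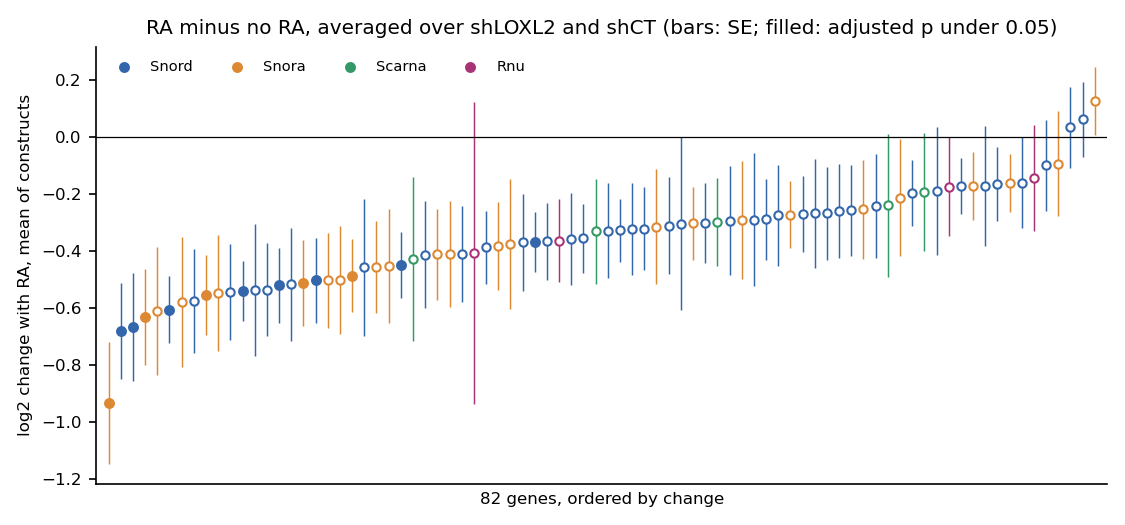
Change in log2 level with RA, averaged over shLOXL2 and shCT, for each of the 82 genes in order (points, with SE bars; colours give the class; filled points passed an adjusted p of 0.05). Of the 82 points 79 lie below 0, and the 13 filled ones lie between -0.93 and -0.37.

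The largest fall was that of Snora74a, a box H/ACA RNA within Snhg4. Its level was 7.97, 8.51 and 8.18 in shLOXL2 with RA, against 8.53, 9.27 and 9.43 in shLOXL2 without RA. It was 8.50, 8.50 and 7.72 in shCT with RA, against 9.75, 9.33 and 8.65 in shCT without RA. The groups with and without RA did not overlap in either construct. The change on average was -0.93 ± 0.21 (limma adjusted p = 0.0121).

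Snord53, a box C/D RNA within Wdr43, a gene of the small-subunit processome, had the smallest adjusted p. Its level was 7.43, 7.11 and 7.08 in shLOXL2 with RA, against 7.60, 7.78 and 7.88 in shLOXL2 without RA, and 7.41, 7.37 and 7.25 in shCT with RA, against 8.14, 7.80 and 7.70 in shCT without RA. Again neither pair of groups overlapped, and the change was -0.54 ± 0.10 (limma adjusted p = 0.00418). Snord88a behaved alike: 6.36, 6.04 and 5.84 in shLOXL2 with RA, against 6.43, 6.83 and 6.93 in shLOXL2 without RA, and 6.0, 6.14 and 6.10 in shCT with RA, against 6.86, 6.55 and 6.52 in shCT without RA. All arrays with RA lay below those without RA of the same construct, and the change was -0.61 ± 0.12 (limma adjusted p = 0.00452). With any 1 array left out, the adjusted p stayed at or below 0.0358 for Snora74a, 0.0149 for Snord53 and 0.0157 for Snord88a.

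Snord91a, within Tsr1, a ribosome assembly factor gene, was dim, and its arrays with RA were uneven. It stood at 3.80, 3.02 and 2.87 in shLOXL2 with RA, against 3.63, 3.66 and 3.14 in shLOXL2 without RA, and at 2.87, 2.81 and 3.24 in shCT with RA, against 3.80, 4.38 and 4.09 in shCT without RA. The arrays overlapped in shLOXL2 and did not in shCT, and these levels lie below the array medians, so part of the signal may be background. The average change was -0.68 ± 0.17 (limma adjusted p = 0.02), and it was called in 6 of the 12 fits with 1 array left out. Snora78, within Snhg9, stood at 7.95, 8.0 and 7.95 in shLOXL2 with RA, against 8.27, 8.73 and 8.80 in shLOXL2 without RA. In shCT it stood at 8.20, 8.10 and 7.53 with RA, against 8.61, 8.57 and 8.09 without RA, where replicate 3 was the lowest array in both groups. Its change was -0.56 ± 0.14 (limma adjusted p = 0.0213).

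Snord11 lies within Nop58, which encodes a core protein of the box C/D particle. Its level was 8.14, 8.29 and 8.05 in shLOXL2 with RA, against 8.36, 9.24 and 9.25 in shLOXL2 without RA, and 8.92, 8.62 and 8.24 in shCT with RA, against 9.64, 9.08 and 8.69 in shCT without RA. The shLOXL2 groups did not overlap and the shCT groups did, with a change of -0.67 ± 0.19 (limma adjusted p = 0.0391). Snora2b, within Kansl2, a gene of the NSL histone acetyltransferase complex, stood at 6.79, 6.46 and 6.60 in shLOXL2 with RA, against 6.98, 7.53 and 7.33 in shLOXL2 without RA, and at 7.33, 6.79 and 6.35 in shCT with RA, against 7.63, 7.62 and 7.01 in shCT without RA. It overlapped in shCT alone, and its change was -0.63 ± 0.17 (limma adjusted p = 0.0287). Snord11 and Snora2b were called in 3 and 4 of the 12 fits with 1 array left out.

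**Figure D2:**
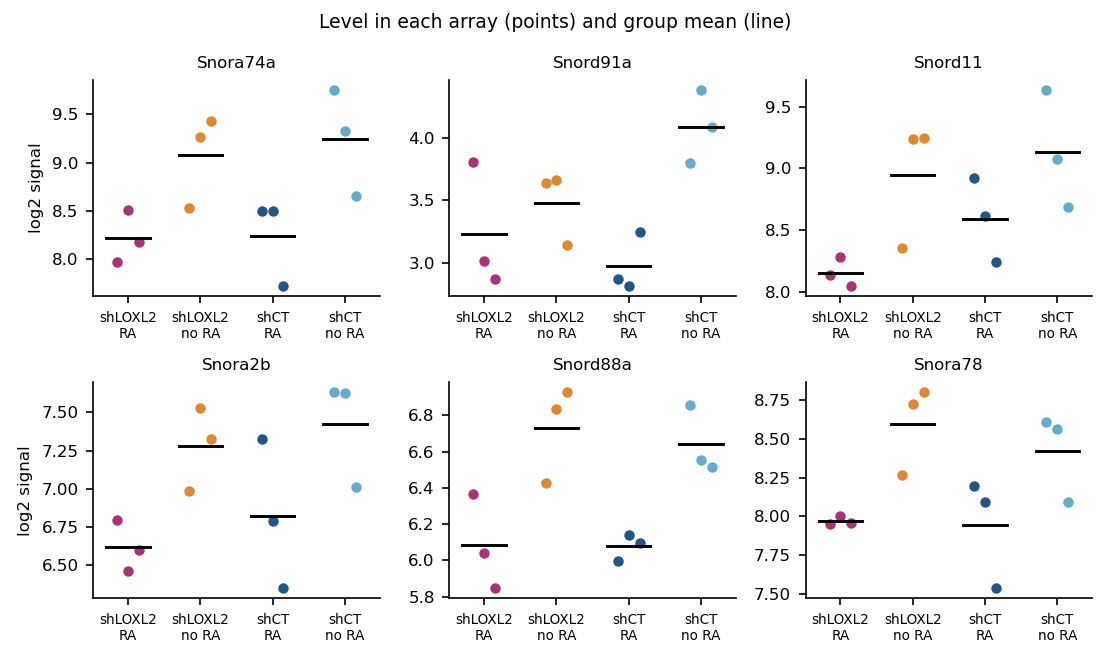
Log2 level of the 6 genes with the largest called falls in each of the 12 arrays (points), with the group mean as a line. In every panel the mean with RA lies below the mean without RA of the same construct, and the Snora74a and Snord88a points with RA lie below all points without RA of their construct.

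By class, the median change with RA was -0.32 for the Snord genes (8 of 47 called lower), -0.41 for the Snora genes (5 of 26), -0.30 for the Scarna genes and -0.27 for the Rnu genes, with none called in the last 2 classes. The Scarna genes stood between -0.43 ± 0.29 (Scarna6) and -0.19 ± 0.21 (Scarna2), with Scarna10 at -0.33 ± 0.18, Scarna8 at -0.30 ± 0.15 and Scarna17 at -0.24 ± 0.25. Among the Rnu genes, Rnu11 and Rnu12, RNAs of the minor spliceosome, stood at -0.18 ± 0.17 and -0.14 ± 0.18. Rnu5g stood at -0.36 ± 0.15 and Rnu3a, a U3 gene needed for early cleavage of the ribosomal RNA precursor, at -0.41 ± 0.53. Their limma adjusted p-values ran from 0.146 for Rnu5g to 0.726 for Rnu3a, and Rnu5g passed with the random replicate block within the construct (0.0492). The 3 genes above 0 were Snora35 (0.13 ± 0.12), Snord123 (0.03 ± 0.14) and Snord23 (0.06 ± 0.13). Snora35 lies within the serotonin receptor gene Htr2c and was dim, with a mean level of 3.86.

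Within shLOXL2 alone no small RNA gene passed the limma threshold for RA (smallest adjusted p 0.0522, for Snord88a at -0.65 ± 0.17), and 1.41% of all genes were called lower. At an unadjusted p under 0.05 stood 24 of 82 (29.3%), against 14.4% of all genes. The median change was -0.41, 81 of 82 genes stood below 0, and in 12 (14.6%) all arrays with RA lay below all arrays without RA, against 9.32% of all genes. Same-numbered arrays of the shLOXL2 groups deviated together. With the number as a random block within the construct 10 genes passed (12.2%), against 3.19% of all genes called lower, and with a fixed block 12 passed (14.6%), against 2.88%. Without replicate 1 of shLOXL2 without RA 10 genes passed in the fit without a block, where the median change was -0.65. Without replicate 1 of shLOXL2 with RA or without replicate 1 of shCT without RA 2 passed. The shares of all genes called with an array left out are not given here.

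Within shCT alone Snord91a passed, with a change of -1.11 ± 0.24 (limma adjusted p = 0.0176), while over all genes 2.09% were called lower. An unadjusted p under 0.05 was reached by 15 of 82 (18.3%), near the 16.5% of all genes. The median change was -0.30, 79 of 82 genes stood below 0, and 17 did not overlap, all lower with RA, against 10.5% of all genes. No gene passed without replicate 2 of shCT without RA or without replicates 1 or 2 of shCT with RA. Without replicate 3 of shCT without RA 3 passed, and 2 without replicate 1 of shLOXL2 with RA, with the shares of all genes not given here. The median change was -0.14, with 63 genes below 0, without replicate 3 of shCT with RA. This median was -0.11, with 58 genes below 0, without replicate 1 of shCT without RA, and -0.47 without replicate 3 of that group. In 5 genes, Snora74a, Snord19, Snord43, Snord53 and Snord88a, the arrays did not overlap in either construct, against 4.33% of all genes.

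The RA responses of the 2 constructs were set against each other in the same fit. No small RNA gene differed (limma, none at an adjusted p under 0.05 and 1 at an unadjusted p under 0.05), and 0% of all genes were called. Snord91a had the smallest p, with a change of -0.25 ± 0.24 in shLOXL2 and -1.11 ± 0.24 in shCT, a difference of 0.86 ± 0.34. Snord23 changed by -0.19 ± 0.18 in shLOXL2 and 0.31 ± 0.18 in shCT, a difference of -0.50 ± 0.26. For Scarna8, Snord111 and Snord72 the differences were 0.52 ± 0.31, -0.51 ± 0.34 and -0.52 ± 0.36. These SEs are as large as many of the RA changes themselves. A difference of that size could be missed with 3 arrays a group, and power was not computed.

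The hairpin against LOXL2 gave no called change among the small RNA genes. With RA and without RA the limma fit called none, and 0% of all genes in each case, with 1 small RNA gene at an unadjusted p under 0.05 in each (Snord110 with RA and Snord91a without RA). That is 1.22% of the small RNA genes, against 4.96% of all genes with RA and 4.68% without RA. Averaged over RA states none passed (smallest adjusted p 0.754), 0 had an unadjusted p under 0.05, against 6.72% of all genes, and 0.0541% of all genes were called. Snord85 stood at 0.38 ± 0.18, Scarna17 at 0.42 ± 0.25, Snord66 at -0.33 ± 0.19, Snord11 at -0.31 ± 0.19 and Snord110 at -0.27 ± 0.15. The median over the 82 genes was -0.12, with 64 below 0, against 49.2% of all genes. Without replicate 1 of shLOXL2 without RA the median was 0.01, with 39 genes below 0. Dropping replicate 1 of shCT with RA gave -0.07, and dropping replicate 1 or 3 of shCT without RA gave -0.05 or -0.18. Weighting the arrays by their quality called 4 genes without RA and 2 on average, with the shares of all genes not given here. Without RA the weights turned the median from -0.05 to 0.14, with 19 genes below 0 in place of 53.

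The small RNA genes varied more between arrays of a group than most genes did. Their pooled SD around the group means had a median of 0.339, against 0.199 for all genes and 0.186 for the genes above the median level. It exceeded the median of all genes in 77 of 82, the upper quartile (0.258) in 62 (75.6%) and the 90th percentile (0.338) in 42 (51.2%). By group, the median SD was 0.197 in shLOXL2 with RA, 0.421 in shLOXL2 without RA, 0.288 in shCT with RA and 0.336 in shCT without RA. For all genes it was 0.168, 0.179, 0.153 and 0.201 in the same order. Across the 82 genes the SD showed little relation to level (Spearman's rho 0.036) or to length (0.12), given as a description over genes that share arrays.

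Rnu3a had the largest spread, with a pooled SD of 1.17. Its level was 8.13, 9.20 and 9.90 in shLOXL2 with RA, against 8.11, 10.21 and 9.82 in shLOXL2 without RA, and 10.04, 8.44 and 7.97 in shCT with RA, against 11.05, 8.71 and 8.21 in shCT without RA. Replicate 1 was the lowest array in both shLOXL2 groups and the highest in both shCT groups. Snord118, the U8 RNA required for maturation of the 5.8S and 28S ribosomal RNAs, followed with an SD of 0.661, then Scarna6 (0.622), Scarna17 (0.540) and Snord15a (0.513). Rnu3a and Snord118 are among the 7 genes with no enclosing gene, as are Rnu11 (0.353) and Rnu12 (0.381). Scarna6, Scarna17 and Snord15a each lie within another gene. The smallest spreads were those of Snord82 (0.155), Snora33 (0.163), Snord53 (0.171), Snord88c (0.175) and Snord71 (0.194). The 13 genes called with RA had SDs from 0.171 to 0.450.

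**Figure D3:**
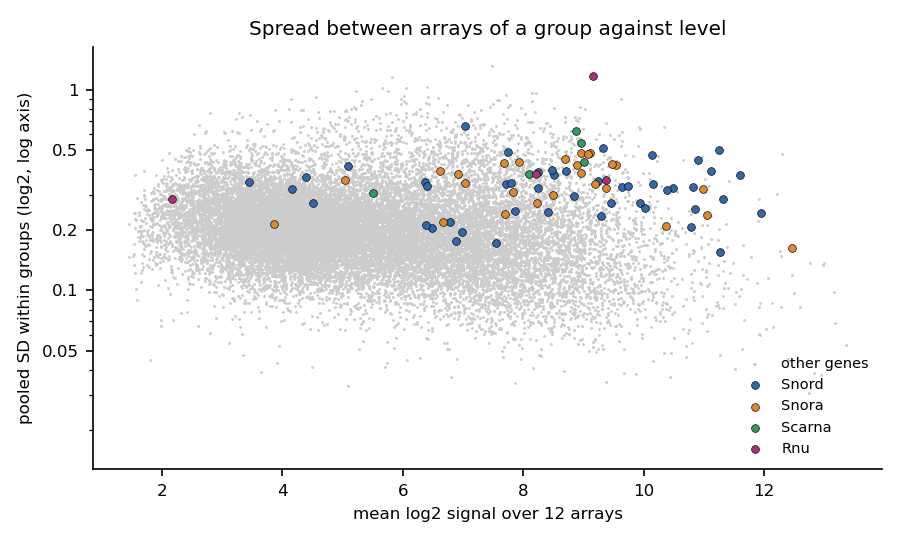
Pooled SD between arrays of a group (log axis) against mean log2 level over 12 arrays, with the small RNA genes coloured by class over all other genes in grey. Of the 82 small RNA genes 77 lie above the all-gene median SD of 0.199, and Rnu3a stands highest among them at 1.17.

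These deviations were shared. Over 3321 pairs of small RNA genes, the median correlation of deviations from the group means was 0.725 and 86.8% were positive, against a median of 0.015 among 2218 genes taken at even steps through the table. In replicate 1 of shLOXL2 without RA 75 of 82 genes lay below their group mean, by a median of 0.47, and in replicates 2 and 3 of that group 77 and 73 lay above it. In shLOXL2 with RA 29, 59 and 28 genes lay above the mean in replicates 1, 2 and 3. In shCT with RA the counts above the mean were 68, 55 and 10, and in shCT without RA 76, 42 and 6. The median level of the 82 genes was 8.14, 8.52 and 8.44 in shLOXL2 with RA, against 8.36, 9.23 and 9.25 in shLOXL2 without RA, and 8.95, 8.65 and 8.18 in shCT with RA, against 9.49, 8.91 and 8.46 in shCT without RA. The medians overlapped between RA states in both constructs: replicate 1 of shLOXL2 and replicates 2 and 3 of shCT without RA lay within the range of the arrays with RA.

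Snora69, Snord22, Snora34 and Snord11 followed the median deviation most closely, at correlations of 0.990 to 0.995 over 12 arrays. Those running against it were Snora19 (-0.58), Snord19 (-0.45), Snord91a (-0.44), Scarna8 (-0.36), Snora23 (-0.28) and Snord88c (-0.03). The genes outside the set most like the median deviation were Rny3, a Y RNA (0.992), the methyltransferase-domain gene Smyd5 (0.991), the DNA damage-binding gene Ddb1 (0.987), Uba1y (0.985) and the snoRNA AF357399 (0.984). At least 0.9 was reached by 484 genes outside the set (2.19%), and 301 lay below -0.9, with Zfp146 at -0.990.

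These deviations moved with an axis that ran through the whole array. The first component of the within-group deviations of all genes outside the set held 49.3% of their variance. Over the 12 arrays its score and the median deviation of the small RNA genes correlated at Pearson's r = 0.890 (permutation p = 5e-05) and Spearman's rho = 0.902 (permutation p = 0.00018), and at r = 0.834 without the 2 arrays farthest from the median score. The 12 deviations sum to 0 within each group, so these p-values are too small. With the axis taken out the median SD of the small RNA genes was 0.191. That of all genes without the axis is not given here, so the 2 cannot be compared. The 484 genes most like the small RNA genes had a median change with RA of -0.13, with 78.7% below 0 and 5.79% called lower, and the 301 opposite genes had a median of 0.17, with 22.3% below 0. The part of this axis in the change with RA was not tested.

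**Figure D4:**
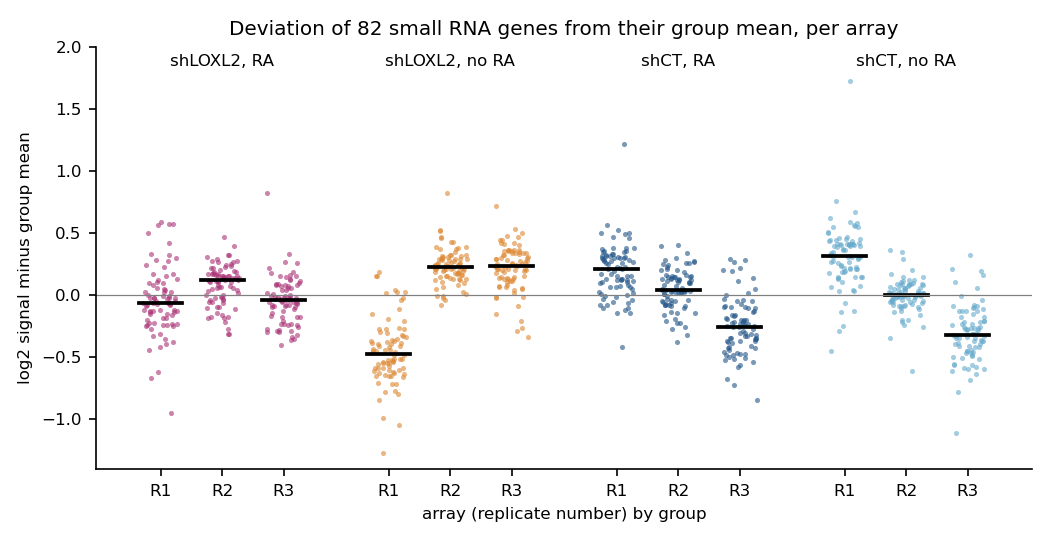
Deviation of each of the 82 genes from its own group mean (points) in each of the 12 arrays, with the median of the array as a line. In replicate 1 of shLOXL2 without RA the median lies at -0.47, and in replicates 1 and 3 of shCT without RA it lies at 0.32 and -0.32.

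Host genes as a group stood nearer to 0 with RA than the small RNAs within them. Over the 48 measured hosts the median change was -0.05, from -0.45 to 0.46. Limma called 3 lower (6.25%) and 1 higher, against the 4.80% and 5.52% of all genes. In 54 of 62 pairs the small RNA lay below its host, and the small RNAs of these pairs had a median change of -0.36. The called hosts were 2410002F23Rik (-0.45 ± 0.08, adjusted p = 0.00305), Snhg12 (-0.39 ± 0.09, adjusted p = 0.0157) and Kansl2 (-0.33 ± 0.08, adjusted p = 0.0166), all lower, and Snhg18 (0.32 ± 0.09, adjusted p = 0.0381). Both partners were called lower in 3 pairs, Snord88a and Snord88c with 2410002F23Rik and Snora2b with Kansl2, out of 12 pairs with a called small RNA.

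In 2410002F23Rik the levels were 7.75, 7.54 and 7.58 in shLOXL2 with RA, against 7.99, 8.03 and 8.14 in shLOXL2 without RA, and 7.42, 7.28 and 7.53 in shCT with RA, against 7.89, 7.83 and 7.91 in shCT without RA. The arrays with and without RA did not overlap, as for Snord88a within it. Snhg12, whose promoter is printed above, fell, while its 4 small RNAs stood at -0.58 ± 0.23 (Snora61), -0.55 ± 0.20 (Snora16a), -0.29 ± 0.21 (Snora44) and -0.20 ± 0.12 (Snord99). None of the 4 passed without a block; with the replicate block within the construct Snora61 (limma adjusted p = 0.0295 random, 0.00378 fixed) and Snora16a (0.0366 and 0.0314) did. Snhg3 stood at -0.33 ± 0.17 (adjusted p = 0.295), beside Snora73b at -0.51 ± 0.15 (adjusted p = 0.0451) and Snora73a at -0.46 ± 0.16 (adjusted p = 0.0983, and 0.0206 with the random replicate block). For 2410006H16Rik, with the other printed run, the host stood at -0.23 ± 0.09 and its Snord65, Snord49b and Snord49a at -0.29 ± 0.14, -0.24 ± 0.18 and -0.17 ± 0.21.

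The next hosts were not called. Nop58 was at 0.13 ± 0.16, with levels of 10.47, 10.33 and 10.42 in shLOXL2 with RA, against 10.73, 9.997 and 9.86 in shLOXL2 without RA, and 10.38, 10.14 and 10.33 in shCT with RA, against 9.73, 10.41 and 10.57 in shCT without RA. Its arrays overlapped in both constructs, beside the fall of Snord11 and a change of -0.39 ± 0.13 in Snord70 (adjusted p = 0.0731, and 0.0219 with the random replicate block). Wdr43 stood at -0.05 ± 0.11, beside Snord53 and beside Snord92 at -0.54 ± 0.16 (adjusted p = 0.0542, and 0.0245 with the random replicate block). Ncl, the nucleolin gene, stood at 0.03 ± 0.12, beside Snora75 at -0.50 ± 0.17 (adjusted p = 0.078, and 0.0152 with that block) and Snord82 at -0.17 ± 0.10. Gnl3, which encodes nucleostemin, stood at -0.20 ± 0.14, beside Snord19 at -0.45 ± 0.11 (adjusted p = 0.0227) and Snord69 at -0.26 ± 0.16.

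The 11 hosts that encode ribosomal proteins had a median change of -0.04 with none called, while their 13 small RNAs had a median of -0.38 with 2 called, Snord43 in Rpl3 and Snord73b in Rps3a1. Rpl3 stood at -0.01 ± 0.09 and Rps3a1 at -0.01 ± 0.08, directions that turned under a second quantile normalization. The median SD of the ribosomal protein hosts of these pairs was 0.115, against 0.339 for the small RNAs in them. In the 11 pairs with an Snhg host the median change was -0.46 for the small RNAs and -0.18 for the 7 hosts. Over all pairs the SD of the small RNA exceeded that of its host in 48 of 62.

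From array to array, a small RNA followed its host in some pairs and ran against it in others. Correlations of their deviations from group means over 12 arrays had a median of -0.03, from -0.91 to 0.96, with 28 positive and 34 negative. That median was 0.07 without replicate 1 of shLOXL2 without RA and 0.19 with the axis taken out. The same small RNAs had a median correlation of -0.17 with hosts of other small RNAs and 0.12 with all genes. In 5 pairs the host was among the 5% of genes most like its small RNA. Of the 62 pairs, 12 passed a permutation test (Benjamini-Hochberg over the pairs), 6 positive and 6 negative, and since the deviations sum to 0 within groups these p-values are too small.

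The closest pair was Scarna10 with Ncapd2, a condensin gene (Pearson's r = 0.956, Spearman's rho = 0.944, permutation adjusted p = 0.00062, and r = 0.923 without the 2 most distant arrays). Scarna10 stood at 7.66, 8.07 and 7.97 in shLOXL2 with RA, against 7.63, 8.57 and 8.64 in shLOXL2 without RA, and at 8.24, 7.86 and 7.72 in shCT with RA, against 8.62, 8.19 and 7.87 in shCT without RA. Ncapd2 stood at 9.27, 9.63 and 9.53 in shLOXL2 with RA, against 9.24, 9.70 and 9.88 in shLOXL2 without RA, and at 9.49, 9.32 and 9.28 in shCT with RA, against 9.69, 9.32 and 9.29 in shCT without RA. Replicate 1 was the lowest array of both genes in both shLOXL2 groups and the highest in both shCT groups. Snora7a with Rpl32 came next (r = 0.917, rho = 0.853, permutation adjusted p = 0.000827, r = 0.849 without the 2 most distant arrays). With Rpl3, Snord83b reached 0.904 and Snord43 0.891. The other called positive pairs were Snora62 with Rpsa (0.821) and Snora19 with Eif3a (0.799). With the axis taken out the correlations with the host were 0.754 for Scarna10, 0.625 for Snora7a, 0.686 for Snord83b and 0.552 for Snord43. Snora62 then stood at 0.527, and Snora19 turned to -0.453.

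The most opposed pairs were Snord16a with Rpl4 (r = -0.908, rho = -0.902, permutation adjusted p = 0.000827, r = -0.898 without the 2 most distant arrays) and Snora69 with Rpl39 (r = -0.873, rho = -0.895, permutation adjusted p = 0.00165, r = -0.828 without them). Snord16a stood at 10.64, 10.99 and 10.77 in shLOXL2 with RA, against 10.56, 11.50 and 11.58 in shLOXL2 without RA, and at 11.24, 11.47 and 10.81 in shCT with RA, against 11.70, 11.29 and 10.90 in shCT without RA. Rpl4 stood at 12.14, 12.02 and 12.09 in shLOXL2 with RA, against 12.13, 12.01 and 11.86 in shLOXL2 without RA, and at 12.08, 12.04 and 12.17 in shCT with RA, against 11.89, 12.06 and 12.21 in shCT without RA. Where Snord16a was highest in a group without RA, Rpl4 was lowest. Snord11 with Nop58 (-0.850), Snord69 with Gnl3 (-0.837), Snord22 with Snhg1 (-0.809) and Snord82 with Ncl (-0.745) were the other called negative pairs. With the axis taken out all of them stood nearer to 0 or turned. The values were then -0.431 for Snord16a, -0.196 for Snora69, -0.441 for Snord11, -0.326 for Snord69, 0.229 for Snord22 and -0.151 for Snord82. In the 11 Snhg pairs, which share 7 hosts, 1 correlation was positive and the median was -0.39. With the axis taken out these ran from -0.418 (Snora74a) to 0.681 (Snora73a). In the 13 ribosomal protein pairs 7 were positive and the median was 0.05. With the axis taken out those ran from -0.431 (Snord16a) to 0.686 (Snord83b).

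**Figure D5:**
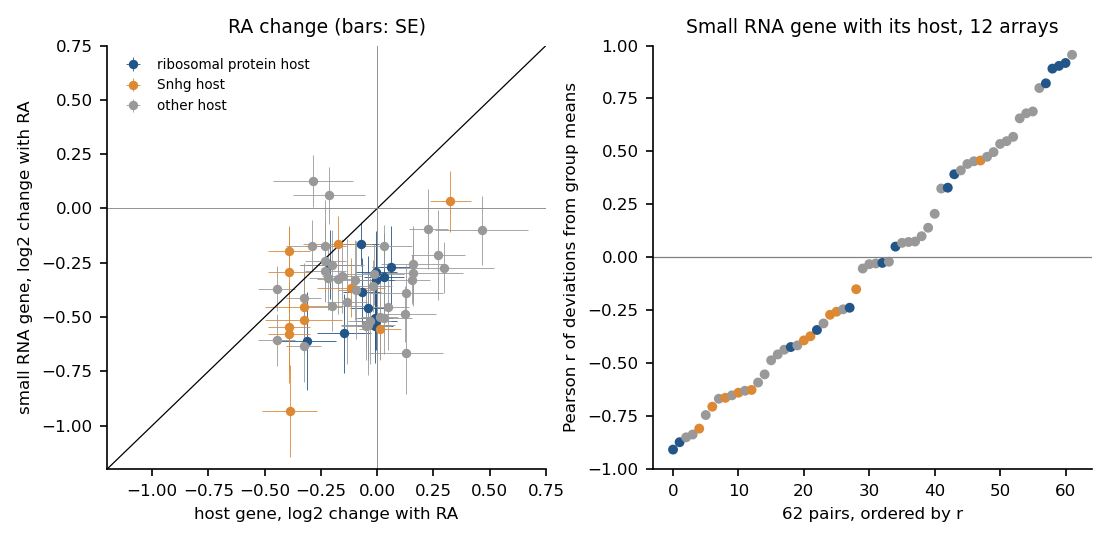
Left, change in log2 level with RA of each small RNA gene against that of its host, with SE bars and the line of equality; 54 of 62 pairs lie below the line. Right, the correlation of each small RNA gene with its host over deviations from group means in 12 arrays, ordered from -0.91 to 0.96, with 28 above 0.

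Genes of the proteins that bind, build and trim these RNAs were called singly, in lists chosen with earlier results known, beside the 4.80% of all genes called lower. None of the 3 measured core proteins of the box C/D particle was called with RA, with Nop56 at -0.22 ± 0.09 and Nop58 as above. Of 4 core proteins of the box H/ACA particle, Nhp2 fell (-0.55 ± 0.11, limma adjusted p = 0.00469), and Dkc1, the pseudouridine synthase, stood at 0.09 ± 0.19. Of 10 assembly factors 2 fell, Nolc1, a nucleolar and Cajal body phosphoprotein gene (-0.50 ± 0.11), and Shq1, a chaperone of dyskerin (-0.43 ± 0.12). Gemin7 of the SMN complex fell by 0.43 ± 0.08 (1 of 11 genes of Cajal bodies and snRNP assembly) and Lsm7 by 0.36 ± 0.09 (1 of 15 Sm and Lsm genes). Snapc4 fell by 0.36 ± 0.09 (1 of 5 subunits of the snRNA promoter complex), and Parn, which trims the ends of box H/ACA RNAs in human cells, and Exosc5 of the exosome fell by 0.42 ± 0.08 and 0.51 ± 0.14 (2 of 13). Among 9 proteins specific to single snRNPs Zcrb1, of the minor spliceosome, rose (0.46 ± 0.12, limma adjusted p = 0.0219). None of these genes was called for the hairpin.

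The small RNA genes with several clusters gave a check within the array. The clusters of Scarna17 correlated at 0.994 over deviations and stood at -0.24 and -0.40 with RA. Those of Snora33 stood at -0.16 (mean level 12.46) and -0.52 (8.13), so the brighter cluster, used here, gave the smaller change. Both clusters of Snora19 held identical values. Another 60 clusters named several genes, at least 1 with such a symbol, and were not among the 82. Many pair a small RNA with its host, as Snora52 with Rplp2, and may measure the host. Of the 60, 58 stood below 0 with RA, with a median of -0.25. Sets of them shared 1 value, as in 16 clusters of Snord116 (-0.25) and 9 of Rnu1b, a U1 gene (-0.17). Each repeat counts in the 58 and in the median, which is the Snord116 value. The 4 clusters of Rnu3b likewise shared 1 value (-0.06), with a pooled SD of 0.328 at a mean level of 10.61. Rnu3a, among the 82, had a pooled SD of 1.17.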

How the data were processed

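The authors deposited log2 signals per transcript cluster for 12 arrays, made from 100 ng of total RNA per sample with a whole-transcript sense labelling, per the labels' protocols. Per the submitters' processing notes the tools included RMA, limma and R (3.1.1). Their order is not stated. Clusters were named from the platform annotation, and 22180 genes entered the fit, each by its brightest cluster.

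One limma fit (3.58.1, R 4.3.3) gave each of the 4 groups a mean, with 7 contrasts and Benjamini-Hochberg adjustment over all genes at 0.05. The fit was tested on simulated data in which genes and arrays varied independently, unlike the shared deviations described above. Permutation tests drew 100000 resamples. A host is the smallest RefSeq gene that encloses a member and is no small RNA gene itself. Predicted genes (Gm or Rik symbols) were taken only where no other gene enclosed the member. Strand was not compared, since the annotation used here has none for these genes. Members, lists and the rule for named genes (the 6 largest called changes or 5 smallest p per comparison, spread extremes, all Scarna and Rnu genes, extreme host pairs and hosts of several members) were chosen with earlier results of these data known. Genes outside that rule were named after their values were seen.

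Same-numbered arrays with and without RA correlated over gene deviations at 0.558, 0.248 and 0.216 in shLOXL2, each above 0.1. In shCT the values were 0.363, 0.039 and 0.631. The main fit took no pairs in either construct. The random and fixed blocks within the construct grouped same-numbered arrays in both.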

Additional observations from a re-analysis of the deposited data

How the results depend on the processing

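Settings other than leaving out an array moved these counts of called genes. For RA on average (13), blocks within the construct gave 29 (random) and 37 (fixed, chosen after seeing the data), array centring 22, array weights 59, all transcript clusters 3 and the axis as a covariate 46, while the replicate block over both constructs gave 9. For RA in shCT (1) the random replicate block gave 6 (7.32%), against 4.46% of all genes called lower. The fixed one gave 7 (8.54%), against 3.89%, where same-numbered arrays correlated at 0.039 to 0.631. A variance trend with robust moderation gave 2, bright genes alone 2, centring 5, weights 16, all clusters 0 and the axis 15. For RA in shLOXL2 (0) the replicate block gave 10 (random) and 12 (fixed), trend and robust moderation together 2, bright genes 2, a second quantile normalization 1, centring 2, weights 44 and the axis 21. Weights gave 4 for the hairpin without RA and 2 on average. With 1 array left out, counts ran from 3 to 38 for RA on average, 0 to 3 in shCT and 0 to 10 in shLOXL2. Apart from the blocks within the construct, the share of all genes called under each setting is not given here. These counts therefore cannot be set against all genes. The median SD of the small RNA genes was 0.191 with the axis taken out, and that of all genes is not given here. As a covariate the axis sums to 0 within each group and leaves the changes as they were (median -0.33 for RA on average). It alters their estimated spread alone, so the counts with it do not test its part in the change. The median host correlation, -0.03, was 0.010 after quantile normalization and 0.19 without the axis, and ran from -0.15 to 0.074 with 1 array left out. Directions turned with centring for Snord23 (-0.015) and Ncl (-0.046), and with quantile normalization for Rpl3 (0.045) and Rps3a1 (0.041). With 1 array left out, changes crossed 0 for Snord23 (-0.0042 to 0.16), Rnu3a (-0.72 to 0.025), Ncl (-0.037 to 0.12), Rpl3 (-0.055 to 0.027), Rps3a1 (-0.042 to 0.022) and Wdr43 (-0.11 to 0.020). The cause of these shifts was not tested. For 72 single results, 4 of 785 values under other settings and 16 of 864 with 1 array left out changed direction. Precision is limited by 3 arrays a group, and no background level was set.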
